A study of Mus musculus with 6 samples.

Results

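Interferon-stimulated antiviral genes are described here in mouse lung, as a module of 38 genes known to respond to interferon. All 38 symbols were found in the gene lists of all 6 libraries, among 29492 genes listed in any library and 20927 listed in all of them. The lungs came from male C57BL/6J mice aged 12 weeks, 2 per group, taken 3 days after treatment. Controls received PBS, the LPS group received lipopolysaccharide (a bacterial cell wall component that causes lung inflammation) at 1 mg/kg, and the SLC+LPS group received the same LPS together with SLC-Gq activation, given 7 times. The title of the series names the subcoeruleus nucleus of the brainstem. The order of the activations and LPS, the vector and its promoter are not stated in the labels. SLC activation without LPS was not analysed here, so its own effect cannot be told apart from its effect on the response to LPS. Single cells were captured in microwells on the BD Rhapsody system, and transcripts were counted by unique molecular identifiers (UMIs, 1 per captured molecule).

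Cells that sense microbial products release interferons. Type I interferons bind the receptor pair IFNAR1 and IFNAR2, the kinases JAK1 and TYK2 are then activated, and a complex that holds STAT2 and IRF9 binds a DNA element in the promoters of the genes described here. Their products degrade viral RNA, bind it, block virus budding or tune the response itself. Interferon gamma, made mostly by NK and T cells, signals through a receptor of its own and induces an overlapping set of genes. LPS reaches the same arm of defence through its receptor TLR4, which can induce Ifnb1, the gene of interferon beta.

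The libraries are called control 1, control 2, LPS 1, LPS 2, SLC+LPS 1 and SLC+LPS 2 after the replicate numbers in the labels. Barcodes with at least 500 UMIs were taken as cells, which gave 11887 to 14599 cells per library, a median of 1128 to 2569 UMIs per cell and 27156543 to 43693864 UMIs in cells. Any pair of libraries shared 1 to 7 barcodes. Members' UMIs numbered 37476 to 231308 per library, and the least counted member was Oas1g with 6 UMIs in control 2. Levels are CPM, a gene's share of all UMIs summed over cells, scaled in the usual way to a fixed total per library. Cells were assigned to 8 types by marker genes, none of them a member. In each type the summed markers of that type exceeded their level in every other type, and no marker list was at 0 in its own type. The cells were chosen by these same markers, so this order is no separate check of the types. The margin was smallest for monocytes, where the monocyte markers summed to 5362 CPM in the lowest library against 3547 CPM at most in another type.

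The cell makeup differed between groups. Gated neutrophils were 12.4% and 10.6% of control cells, 38.4% and 34.9% of LPS cells, and 45.0% and 44.3% of SLC+LPS cells. Since the members' summed level was higher in neutrophils than in the whole library of every sample, the makeup alone moves the level of a whole library. With each type kept at its mean control level, the type shares of the treated libraries gave 1697 and 1881 CPM for LPS and 1722 and 1738 CPM for SLC+LPS, summed over the 38 members. The measured sums were 4093 and 5294 CPM in the LPS libraries, 1466 CPM in SLC+LPS 1 and 3950 CPM in SLC+LPS 2, beside 1378 and 1250 CPM in the controls. A rise within cells and a shift between types cannot be told apart in the sums of whole libraries, so each type is described on its own below.

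The promoters of several members carry the element that interferon-activated complexes bind. RefSeq promoters (build GRCm38.p6, 250 bases before to 50 after the start of a gene) were matched for 28 of the 38 members and searched on both strands for GAAANNGAAA, the core of that element. It was found in 14 of the 28 members (50%), against 3.99% of all 27025 genes in the table. A match is a stretch of letters and not a measured binding site. Windows of 100 bases upstream of the start are shown for 6 members, with every match in capitals. They were chosen because Rsad2 passed the test in both comparisons with controls, because Isg15 holds overlapping matches, and because Ifit3 with Ifit3b and Oas1a with Oas1g are neighbouring copies whose reads the counting may have split.

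Rsad2: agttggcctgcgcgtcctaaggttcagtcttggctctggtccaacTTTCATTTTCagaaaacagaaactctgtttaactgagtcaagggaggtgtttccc
Isg15: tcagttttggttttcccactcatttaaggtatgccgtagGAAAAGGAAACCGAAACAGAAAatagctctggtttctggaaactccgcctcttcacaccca
Ifit3: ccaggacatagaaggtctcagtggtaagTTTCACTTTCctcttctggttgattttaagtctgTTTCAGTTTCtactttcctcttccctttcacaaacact
Ifit3b: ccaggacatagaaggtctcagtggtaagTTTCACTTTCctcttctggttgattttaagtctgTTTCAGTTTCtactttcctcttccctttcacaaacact
Oas1a: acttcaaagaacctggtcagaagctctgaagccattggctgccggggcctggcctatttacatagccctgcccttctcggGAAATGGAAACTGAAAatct
Oas1g: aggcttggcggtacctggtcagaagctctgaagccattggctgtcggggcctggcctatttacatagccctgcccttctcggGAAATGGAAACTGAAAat

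The windows lie on GRCm38.p6 at chr12:26456518-26456617 (minus strand) for Rsad2, chr4:156200836-156200935 (minus) for Isg15, chr19:34583345-34583444 (plus) for Ifit3, chr19:34607741-34607840 (plus) for Ifit3b, chr5:120907526-120907625 (minus) for Oas1a and chr5:120887614-120887713 (minus) for Oas1g. Isg15 held 3 overlapping matches, which begin 78, 72 and 66 bases before the start. The windows of Ifit3 and Ifit3b differed at 0 of 100 bases. Members also lie near each other in the genome, though other genes can lie between them: Ifit2, Ifit3, Ifit1bl1, Ifit3b and Ifit1 on chromosome 19, Oas2, Oas3, Oas1g and Oas1a on chromosome 5, Oasl1 with Oasl2 on chromosome 5, Rsad2 with Cmpk2 on chromosome 12, and Mx1 with Mx2 on chromosome 16. The counts of Ifit1bl1, which overlaps its neighbours in the table, and of the copies named above are uncertain for that reason.

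After LPS, 17 of the 38 members rose in the whole library against control and 0 fell (edgeR quasi-likelihood test, adjusted p under 0.05), where 4.35% of 18110 genes tested passed as higher. All 38 passed the filter on low counts. The median log2 fold change over the members was 2.30, against −0.01 over all genes tested, and 37 members had a positive value, as they also had with library totals in place of TMM scaling. That scaling sets the typical gene to no change. Without it the median of all genes was −0.38, the median of the members 1.93 and 18 members passed, while the split over all genes went from 788 higher and 847 lower to 565 higher and 1899 lower. The design has 2 libraries per group, and an exact permutation test of 2 against 2 cannot go below p = 0.3333, so the test borrows its estimate of spread from all genes. Without control 1, 0 of 18963 genes passed, members included, and without control 2, 0 of 18944. The median over the members was then 2.42 and 2.20.

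Most of the IFIT genes and viperin, which bind foreign RNA or make a chain-terminating nucleotide, were several times higher in both LPS libraries. Ifit3b stood at 8.0 and 8.3 CPM in the controls and at 37.6 and 53.4 CPM after LPS (log2 fold change 2.84, SE 0.55, adjusted p = 0.0341). Rsad2, the gene of viperin, stood at 93.1 and 101 CPM in the controls and at 716 and 576 CPM after LPS (3.10, SE 0.61, adjusted p = 0.0351). The neighbour of Rsad2, Cmpk2, whose product supplies nucleotides in mitochondria, rose as well (2.36, adjusted p = 0.0355). Ifit1bl1 rose from 1.5 and 1.4 CPM to 6.9 and 37.1 CPM (4.26, SE 0.82, adjusted p = 0.0332), with the LPS libraries far apart. Ifit3 (2.84, adjusted p = 0.0504), Ifit1 (1.60, adjusted p = 0.108) and Ifit2 (1.95, adjusted p = 0.134) had positive values and did not pass.

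The ISG15 system attaches a ubiquitin-like protein to other proteins. Usp18, which removes ISG15 and restrains the type I interferon receptor, rose from 10.2 and 10.5 CPM to 66.2 and 90.2 CPM (3.28, SE 0.52, adjusted p = 0.0254). Herc6, the ligase that attaches ISG15 in mice, rose from 10.1 and 8.4 CPM to 39.4 and 65.4 CPM (2.86, SE 0.48, adjusted p = 0.0266). Isg15 itself was at 28.5 and 21.4 CPM in the controls, 84.0 CPM in LPS 1 and only 24.6 CPM in LPS 2, so its groups overlapped and it did not pass (1.5, SE 0.77, adjusted p = 0.248).

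The OAS enzymes make a short oligonucleotide that switches on RNA degradation, and 5 of the 6 members of the family rose. Oas3 went from 10.05 and 8.1 CPM to 63.7 and 50.7 CPM (3.02, SE 0.50, adjusted p = 0.0265). Oas2 went from 6.0 and 4.4 CPM to 21.8 and 16.2 CPM (2.24, SE 0.43, adjusted p = 0.0329). Oasl2, an OAS-like protein, went from 76.4 and 66.3 CPM to 457 and 578 CPM (3.22, SE 0.63, adjusted p = 0.035). In each of the 3 the LPS libraries lay above both controls. Oas1a (2.66, adjusted p = 0.0351) and the thinly counted Oas1g (3.95, adjusted p = 0.0341) rose too, and Oasl1 did not pass (1.36, adjusted p = 0.122).

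Among the other effectors, Trim30a, a TRIM protein of mouse leukocytes that restrains NF-kB signalling, rose from 95.05 and 86.8 CPM to 322 and 448 CPM (2.45, SE 0.38, adjusted p = 0.0239). Rtp4, a chaperone of membrane receptors, rose from 52.4 and 43.7 CPM to 198 and 340 CPM (2.85, SE 0.53, adjusted p = 0.0315), and Parp14, an ADP-ribosyltransferase, also rose (2.54, adjusted p = 0.0367). The other 6 of this role did not pass, with values of 1.78 for Slfn5, 1.63 for Bst2, 1.53 for Isg20, 1.26 for Samd9l, 1.06 for Mx1 and −0.12 for Mx2. Mx2 was the single member with a negative value, at 8.4 and 10.5 CPM in the controls against 6.2 and 7.3 CPM after LPS. The RefSeq table lists both Mx1 and Mx2 of this strain as transcribed pseudogenes, and C57BL/6 mice are known to lack a working Mx1.

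Of the 4 nucleic acid sensors, 2 rose. Zbp1, which senses left-handed nucleic acid and can start necroptosis, went from 9.7 and 8.7 CPM to 143 and 96.1 CPM (4.07, SE 0.69, adjusted p = 0.0274). Ifi204, a DNA sensor of the interferon-inducible p200 family, went from 45.2 and 43.7 CPM to 183 and 337 CPM (2.91, SE 0.58, adjusted p = 0.0351). Dhx58 (1.95, adjusted p = 0.0605) and Ifih1 (1.25, adjusted p = 0.134), which sense double-stranded RNA, did not pass. None of the 3 transcription factors passed. Both LPS libraries were above both controls for each, an order found in 15.2% of all genes tested. Irf7 was at 6.7 and 4.5 CPM against 41.9 and 22.1 CPM (2.89, SE 0.77, adjusted p = 0.0646), Irf9 had 1.34 (adjusted p = 0.062) and Stat2 1.24 (adjusted p = 0.0856). Of the 6 members with less settled roles, Xaf1 rose (2.76, SE 0.61, adjusted p = 0.0437). The others ranged from 0.71 for Ifi27l2a to 3.29 for Ifi44 and did not pass.

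**Figure D1:**
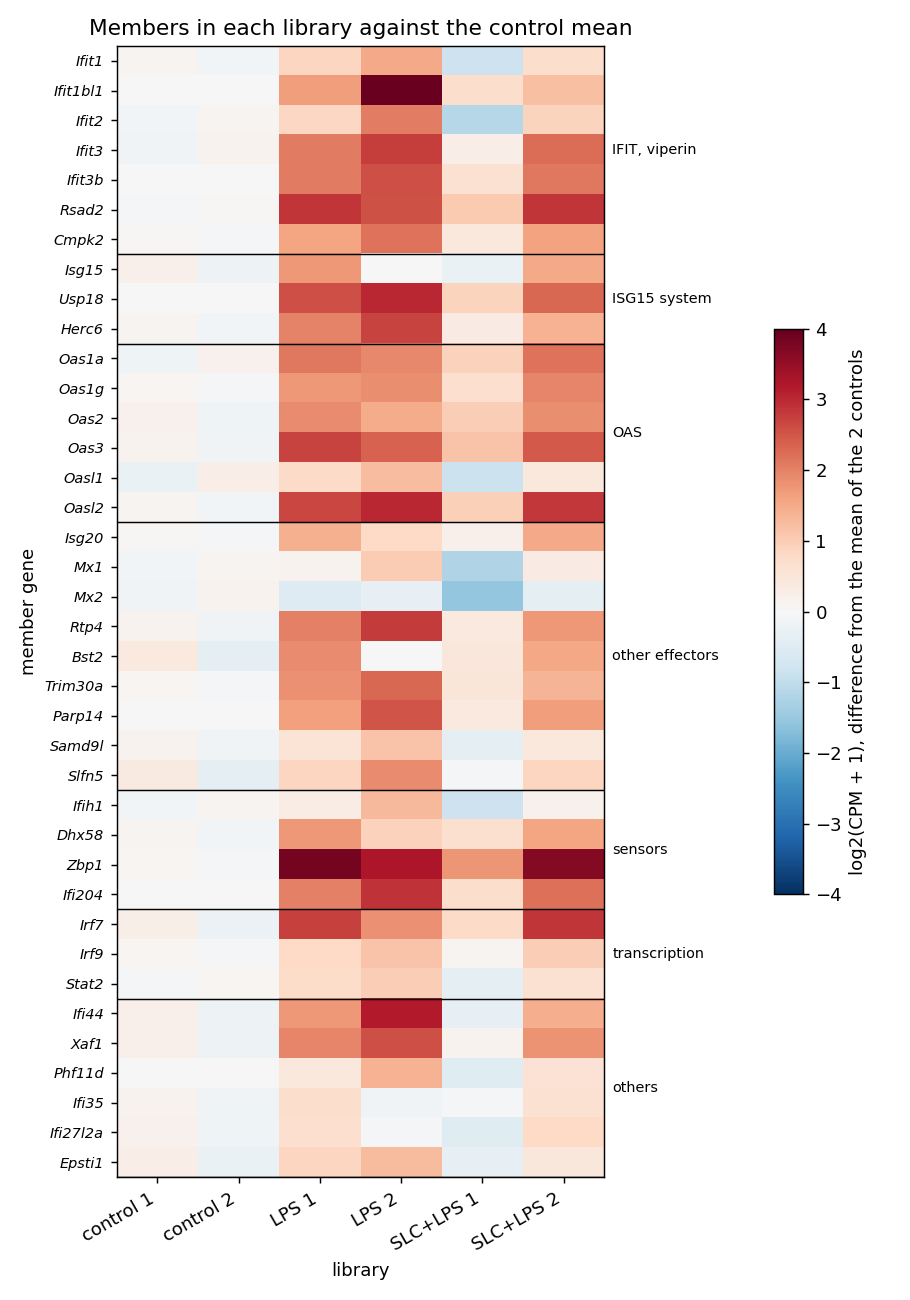
Each row is a member, grouped by role, and each column a library. Colour gives log2(CPM + 1) of the whole library less the mean of the 2 controls: LPS 1, LPS 2 and SLC+LPS 2 are mostly red, while SLC+LPS 1 is pale for most members and deepest blue for Mx2, Mx1, Ifit2, Oasl1, Ifit1 and Ifih1.

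The LPS libraries were not alike: 26 members were higher in LPS 2 and 12 higher in LPS 1. Of those 12, 5 were among the 9 members in the shortest of 4 equal classes of genes by span in the RefSeq table. Isg15, at 84.0 CPM in LPS 1 and 24.6 CPM in LPS 2, spans 1395 bases, and Bst2, which tethers budding virus, at 52.5 and 13.6 CPM, spans 3218 bases. The median span was 10049 bases for the 12 and 19383 bases for the other members. Over all genes the log2 ratio of LPS 2 to LPS 1 had a median of −0.15 in the shortest class and 0.27 in the longest, against −0.02 and −0.02 between the controls. The part of this length trend in the members' values was not tested.

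After SLC activation plus LPS, 8 members were higher than in controls and 0 lower, where 5.45% of genes tested passed as higher: Zbp1, Oas3, Oas2, Oas1g, Usp18, Oas1a, Rsad2 and Oasl2. This comparison uses the same control libraries as the one for LPS alone. The median over the members was 1.46, against −0.01 over all genes, and 37 members had positive values, or 34 without TMM scaling, where Ifih1, Mx1 and Oasl1 turned negative. By role, 5 of the 6 OAS genes passed, as did 1 of 4 sensors (Zbp1), 1 of 3 genes of the ISG15 system (Usp18) and 1 of 7 in the IFIT and viperin group (Rsad2). Transcription factors, other effectors and the less known members had 0 called each.

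Those 8 calls rested on unequal libraries. Zbp1 was at 33.7 CPM in SLC+LPS 1 and 130 CPM in SLC+LPS 2 (3.56, SE 0.68, adjusted p = 0.0309). Rsad2 was at 201 and 713 CPM (2.64, SE 0.60, adjusted p = 0.0404) and Oasl2 at 138 and 516 CPM (2.60, SE 0.62, adjusted p = 0.0435). Usp18 was at 20.3 and 54.9 CPM (2.26, SE 0.50, adjusted p = 0.0389). For each of these 4 genes SLC+LPS 1 lay above both controls and below both LPS libraries, with SLC+LPS 2 well above it. Oas3 was at 21.1 and 53.8 CPM (2.44, SE 0.49, adjusted p = 0.033), Oas2 at 11.3 and 21.2 CPM (2.03, SE 0.42, adjusted p = 0.035), Oas1a at 7.3 and 18.9 CPM (2.32, SE 0.52, adjusted p = 0.0395) and Oas1g at 1.1 and 3.9 CPM (3.50, SE 0.77, adjusted p = 0.0372). Without SLC+LPS 1 the median over all members was 2.12. Without SLC+LPS 2, 0 of 19152 genes passed, members included, the members' median was 0.60 and 25 of 38 values were positive. Without control 1 or control 2, 0 of all genes tested passed, with members' medians of 1.60 and 1.37.

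The 2 SLC+LPS mice stood apart in every member. All 38 were lower in SLC+LPS 1 than in SLC+LPS 2, 27 of them by more than 2-fold, with a median log2 ratio of −1.27 and a range from −2.09 (Irf7) to −0.50 (Ifit1bl1). Over all genes tested, 38% were lower in SLC+LPS 1 and 2.2% by more than 2-fold, with a median of 0.10. Genes other than members that were higher after LPS than in controls numbered 771, and in these the same ratio had a median of −0.09, with 5.06% lower by more than 2-fold. By role the median ran from −1.54 in the IFIT and viperin group to −0.99 in the transcription factors. Between the controls no member differed by more than 2-fold, and between the LPS libraries 7 did, 5 lower and 2 higher in LPS 1. These are ratios of single libraries, with no test.

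**Figure D2:**
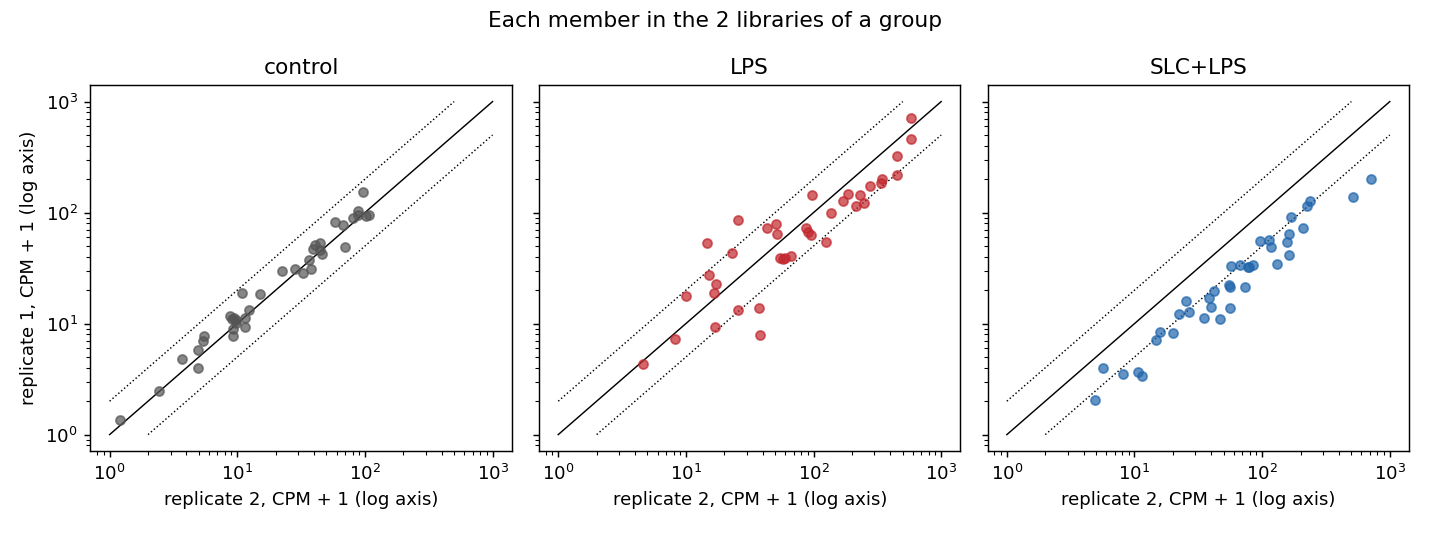
CPM + 1 of each member in replicate 1 (vertical, log axis) against replicate 2 (horizontal, log axis) of a group. The solid line marks equal values and the dotted lines a 2-fold difference: control points lie between the dotted lines, LPS points on both sides of the solid line, and all 38 points of SLC+LPS lie below it.

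Against LPS alone, 0 of 38 members passed in the SLC+LPS group, as did 0 of 18110 genes in either direction (0% of genes), with 7 members and 486 genes at an unadjusted p under 0.05 (edgeR). DESeq2 called 0 members. All 38 values were negative, with a median of −0.80 against 0.00 over all genes. Herc6 had −1.45 (SE 0.45), Trim30a −1.06 (SE 0.36) and Ifit1bl1 −2.49 (SE 0.75), each at adjusted p = 0.93. The size turned on 1 library, since the median was −0.21 without SLC+LPS 1 and −1.74 without SLC+LPS 2. In single libraries, SLC+LPS 1 was below both LPS libraries for 36 members, where 21.3% of genes were, and SLC+LPS 2 for 13, where 37.2% of genes were. SLC+LPS 1 was at or below the higher control for 16 of the 38 members, where 71.6% of genes were.

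Within neutrophils, first responders that leave the blood for inflamed lung, the members summed to 2946 and 3075 CPM in the controls, 6586 and 8372 CPM after LPS, 2371 CPM in SLC+LPS 1 and 6270 CPM in SLC+LPS 2. After LPS 4 of 38 members rose (1.37% of genes tested passed as higher). Usp18 went from 9.4 and 14.9 CPM to 104 and 107 CPM (3.30, SE 0.54, adjusted p = 0.0145). Zbp1 went from 14.9 and 12.3 CPM to 176 and 149 CPM (3.70, SE 0.68, adjusted p = 0.0265), Herc6 from 5.9 and 12.9 CPM to 54.9 and 100.3 CPM (3.31, SE 0.65, adjusted p = 0.0296) and Ifit2 from 10.2 and 10.99 CPM to 93.4 and 157 CPM (3.77, SE 0.77, adjusted p = 0.0354). In the same order, SLC+LPS 1 had 31.4, 37.9, 14.5 and 17.9 CPM and SLC+LPS 2 had 83.0, 168.5, 35.7 and 83.3 CPM. SLC+LPS 1 was above the higher control in all 4 genes and below both LPS libraries.

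The members with the most counts in neutrophils started from high control levels and did not pass. Oasl2 was at 467 and 511 CPM in control neutrophils, 942 and 1422 CPM after LPS, 299 CPM in SLC+LPS 1 and 989 CPM in SLC+LPS 2. Rsad2 was at 385 and 477, 1156 and 901, and 377 and 1154 CPM in the same order. Trim30a was at 437 and 440, 664 and 859, and 233 and 454 CPM. For these 3 genes SLC+LPS 1 was below both controls. After SLC+LPS 0 of 38 members passed against control in neutrophils, where 0.994% of genes passed as higher. At an unadjusted p under 0.05 (edgeR) were 6 members and 2600 of 12370 genes. DESeq2 called 3 members and 643 of 23638 genes. In SLC+LPS 1, 23 members were at or below the higher control, where 45.4% of genes were. The members' median log2 fold change after LPS was 1.51 in neutrophils. It was 1.61 and 1.56 without control 1 and 2, and 1.89 and 1.51 without LPS 1 and 2. The 4 calls were lost without either control. Calls over all genes shifted as well in fits with a library left out.

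Monocytes, which give rise to macrophages in inflamed tissue, held 181 to 1122 cells per library. Their members summed to 3136 and 3032 CPM in controls, 4146 and 5483 CPM after LPS, 1209 CPM in SLC+LPS 1 and 3254 CPM in SLC+LPS 2. None of the 36 members tested passed after LPS, where 0.116% of genes passed as higher, or after SLC+LPS (0.297%). At an unadjusted p under 0.05 (edgeR) were 15 members and 802 of 7741 genes after LPS, and 6 members and 1193 genes after SLC+LPS. DESeq2 called 5 members and 126 of 19608 genes after LPS. After SLC+LPS it called 2 members, both lower, and 260 genes. Rsad2 was at 266 and 202 CPM in controls, 713 and 647 CPM after LPS, and 127 and 560 CPM in the SLC+LPS libraries. Ifih1, the gene of the sensor MDA5, was already at 440 and 592 CPM in control monocytes, with 279 and 646 CPM after LPS and 74.4 and 194 CPM in the SLC+LPS libraries, both below the controls. Ifi204 stood at 419 and 348, 251 and 570, and 68.3 and 266 CPM, again with both SLC+LPS libraries below the controls.

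In macrophages, 4 of 38 members rose after LPS (0.85% of genes passed as higher). Usp18 went from 2.1 and 2.8 CPM to 28.5 and 46.0 CPM (4.19, SE 0.62, adjusted p = 0.0386), Cmpk2 from 3.2 and 3.2 CPM to 23.2 and 36.3 CPM (3.48, SE 0.41, adjusted p = 0.0364), Xaf1 from 2.7 and 2.8 CPM to 20.2 and 31.9 CPM (3.49, SE 0.55, adjusted p = 0.0403) and Oas3 from 1.9 and 1.6 CPM to 29.7 and 24.8 CPM (4.19, SE 0.72, adjusted p = 0.0475). Cmpk2 alone passed after SLC+LPS, at 15.2 and 22.3 CPM (2.75, SE 0.41, adjusted p = 0.0369; 0.802% of genes passed as higher). That call was lost without control 1, control 2 or SLC+LPS 2. The members' median log2 fold change after SLC+LPS was 1.19, and 1.70 and 0.41 without SLC+LPS 1 and 2. Rsad2 had 86.5 and 107 CPM in controls, 436 and 387 CPM after LPS and 95.05 and 412 CPM in the SLC+LPS libraries, and did not pass. Oasl2 had 23.6 and 25.2, 213 and 191, and 42.6 and 257 CPM, and did not pass. Ifih1 was at 156 and 182 CPM in controls and at 58.4 and 117 CPM in the SLC+LPS libraries. The 4 calls after LPS were lost without either control. With expected free RNA (RNA of broken cells, described below) subtracted, 0 of the 37 members tested passed after LPS or SLC+LPS, as did 0 of 10078 genes. The members' median after LPS was 1.77, with 1.75 and 1.90 without control 1 and 2, and 1.84 and 1.73 without LPS 1 and 2. Calls over all genes shifted as well when a library was left out.

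In T cells 2 of 33 members tested rose after LPS, where 3 of 9633 genes did (0.0311%): Oasl2 went from 18.1 and 15.8 CPM to 109 and 108 CPM (2.71, SE 0.40, adjusted p = 0.0487) and Ifi204 from 3.2 and 5.5 CPM to 32.8 and 37.3 CPM (3.07, SE 0.44, adjusted p = 0.0487). Both were lost with the stricter gate, without either control and without SLC+LPS 1. After SLC+LPS 0 passed (0.0104% of genes as higher), with Oasl2 at 36.6 and 85.3 CPM. At an unadjusted p under 0.05 (edgeR) were 10 members and 852 of 9633 genes, and DESeq2 called 2 members and 69 of 19632 genes. Epsti1, Irf9 and Trim30a, the members with the most counts in T cells, did not pass, and Epsti1 was at 277 and 199 CPM in controls against 329 and 343 CPM after LPS. In B cells Rsad2 rose after LPS, from 8.5 and 9.6 CPM to 106 and 119 CPM (3.63, SE 0.39, adjusted p = 0.00461; 0.436% of genes as higher), and after SLC+LPS, at 77.6 and 149 CPM (3.80, SE 0.41, adjusted p = 0.0056; 0.401%). No other of the 26 members tested there passed, among them Irf9, Trim30a and Samd9l, which had the most counts. Without SLC+LPS 2 the second of the Rsad2 calls ended. Both calls ended with expected free RNA (RNA of broken cells, described below) subtracted. Then 0 of the 16 members still tested passed, where 10 and 11 of 7329 genes did. Free RNA would account for 53.8% and 61.7% of the members' level in control B cells, 60.9% in LPS 1 and 16.3% in LPS 2. It would account for 55.6% in SLC+LPS 1 and 72.0% in SLC+LPS 2. The members' median in B cells after LPS was 0.97, and 1.11 and 0.68 without LPS 1 and 2. Calls over all genes shifted in these fits as well.

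NK cells are innate lymphocytes that kill infected cells. Their members summed to 919 and 930 CPM in controls, 1297 and 1521 CPM after LPS, and 1567 and 1507 CPM in the SLC+LPS libraries, with 104 NK cells in SLC+LPS 1 and 200 in SLC+LPS 2. The expected part of free RNA (RNA of broken cells, estimated from epithelial genes) was 65.0% of this level in LPS 1 and 69.3% in SLC+LPS 2, but 13.1% in LPS 2 and 20.1% in SLC+LPS 1. The sums less that part were 474 and 398 CPM in controls, 454 and 1322 CPM after LPS, and 1252 and 462 CPM in the SLC+LPS libraries, so LPS 1 and SLC+LPS 2 were then between the controls. After LPS 5 of 27 members tested rose (0.774% of genes as higher). Rsad2 went from 8.0 and 19.7 CPM to 74.9 and 65.2 CPM (2.50, SE 0.43, adjusted p = 0.0143), Oasl2 from 16.0 and 11.5 CPM to 56.6 and 63.3 CPM (2.18, SE 0.39, adjusted p = 0.0197), and Usp18 (2.55, adjusted p = 0.0256), Ifi204 (2.79, adjusted p = 0.0307) and Trim30a (1.38, adjusted p = 0.0406) passed as well. After SLC+LPS 4 rose (0.677%): Rsad2 at 154 and 174 CPM (3.74, SE 0.44, adjusted p = 0.00272), Oasl2 at 107 and 98.6 CPM (2.92, SE 0.41, adjusted p = 0.00388), Ifi204 at 41.6 and 70.8 CPM (3.58, SE 0.60, adjusted p = 0.0122) and Ifit3 at 47.5 and 55.6 CPM (2.77, SE 0.54, adjusted p = 0.0322). With expected free RNA subtracted, 0 of the 15 members still tested passed in either comparison, where 13 and 16 of 5866 genes did. Epsti1 and Irf9, which with Trim30a had the most counts, did not pass. The LPS calls fell to 1 with the stricter gate, and all or most were lost without control 1 or control 2. Some SLC+LPS calls were lost without control 1, control 2 or SLC+LPS 1, and all without SLC+LPS 2. The members' median after LPS was 1.04, and 0.84 and 1.18 without control 1 and 2. After SLC+LPS it was 0.80, and 0.80 and 0.87 without SLC+LPS 1 and 2. Calls over all genes shifted as well in these fits.

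Endothelial cells, which line the lung's vessels, summed to 2504 and 2107 CPM in controls, 4025 and 8170 CPM after LPS, 1802 CPM in SLC+LPS 1 and 4458 CPM in SLC+LPS 2. After LPS 2 of 34 members tested rose (0.348% of genes as higher): Ifi204 went from 7.0 and 8.8 CPM to 82.1 and 87.3 CPM (3.62, SE 0.49, adjusted p = 0.0298) and Zbp1 from 8.1 and 8.8 CPM to 90.3 and 86.4 CPM (3.55, SE 0.54, adjusted p = 0.0341). Both calls were lost without either control. The members' median after LPS was 1.85, with 2.01 and 1.75 without control 1 and 2, and 2.19 and 1.34 without LPS 1 and 2. Calls over all genes shifted as well in these fits. Slfn5, a Schlafen family member, had its highest level here in every library, at 1172 and 921 CPM in controls, 982 and 2425 CPM after LPS and 591 and 1048 CPM in the SLC+LPS libraries, and did not pass. Ifit1 reached 764 CPM in LPS 2, against 194 CPM in LPS 1 and 128 and 86.2 CPM in controls. After SLC+LPS 0 passed (0.196% of genes as higher). At an unadjusted p under 0.05 (edgeR) were 5 members and 843 of 9201 genes, and DESeq2 called 3 members and 125 of 20171 genes. Fibroblasts, which build the connective tissue, summed to 691 and 748 CPM in controls, 2010 and 1464 CPM after LPS, and 970 and 1984 CPM in the SLC+LPS libraries. There 0 of 36 members passed after LPS (0% of genes as higher) and 0 after SLC+LPS (0.0256%). At an unadjusted p under 0.05 (edgeR) were 21 members and 903 of 11707 genes after LPS, and 15 members and 1415 genes after SLC+LPS. DESeq2 called 12 members and 203 of 22819 genes after LPS, and 8 members and 307 genes after SLC+LPS. Oasl2 was at 39.6 and 47.2, 169 and 123, and 77.1 and 224.5 CPM.

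**Figure D3:**
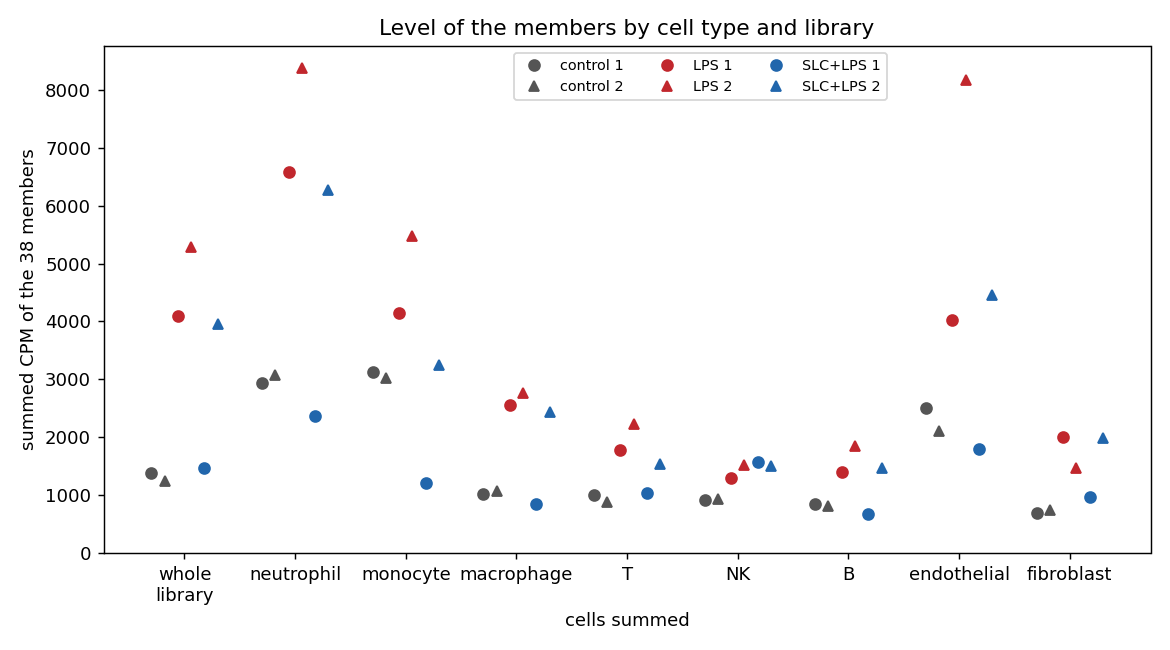
Summed CPM of the 38 members in the whole library and in each gated type. Circles are replicate 1 and triangles replicate 2, grey for control, red for LPS and blue for SLC+LPS: the blue circle lies at or under the grey points in neutrophils, monocytes, macrophages, B cells and endothelial cells, and is the highest point in NK cells.

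Within the types no member passed between SLC+LPS and LPS. In neutrophils 0.00808% of genes passed in either direction, in T cells 0.0104% and in the other 6 types 0%. At an unadjusted p under 0.05 there were 16 members in neutrophils (472 of 12370 genes), 15 in monocytes (449 of 7741), 8 in macrophages (262 of 12588), 6 in T cells (311 of 9633), 3 in NK cells (395 of 7234), 4 in B cells (513 of 8477), 17 in endothelial cells (706 of 9201) and 1 in fibroblasts (327 of 11707). DESeq2 called 4 pairs of a member and a type, summed over the 8 types. All 4 were lower and in monocytes, where it called 26 of 19608 genes.

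The levels in a type include free RNA, set loose from broken cells and captured with every cell. Its share was estimated from 6 epithelial genes in cells of other types, and was 3.43% to 11.2% of UMIs in the types of LPS 2 and 18.0% to 45.9% in the types of the other 5 libraries. Free RNA would account for 6.4% to 18.5% of the members' level in neutrophils, and 3.9% to 31.6% in monocytes, but for up to 72.0% in B cells, 69.8% in fibroblasts, 69.3% in NK cells and 68.0% in T cells. The neutrophil sums less this share were 2464 and 2549 CPM in controls, 5645 and 7840 CPM after LPS, and 2047 and 5109 CPM in the SLC+LPS libraries. With expected free RNA subtracted from the counts, all 24 calls of a member in a type, 18 after LPS and 6 after SLC+LPS, were lost. For each comparison with control, 1 other pair of a member and a type passed, in neutrophils. Calls over all genes then also went to 0 in monocytes, macrophages and T cells, and fewer members had enough counts for the test. The members' median after LPS was 1.73 in neutrophils (1.51 before), 1.98 in macrophages (1.77), 1.58 in T cells (1.34) and 0.90 in monocytes (1.11). Over all genes the median was 0.71 in neutrophils (0.09 before), 0.10 in macrophages (0.05), 0.05 in T cells (0.02) and 0.14 in monocytes (0.05). In neutrophils 242 genes were then called higher and 8 lower, so the members' higher median there came with a shift of all genes. In T cells the sums less free RNA were 783 CPM in SLC+LPS 1 and 490 CPM in SLC+LPS 2, the reverse of their order before.

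Counted by cell, the share of neutrophils with UMIs of at least 3 members, after each cell was thinned to 500 UMIs, was 14.2% and 15.4% in controls, 37.1% and 45.2% after LPS, 9.19% in SLC+LPS 1 and 36.2% in SLC+LPS 2. Exact binomial 95% intervals, which cover counting error only, ran from 8.49% to 9.93% in SLC+LPS 1 and from 12.6% to 15.9% in control 1. Without thinning the shares were 42.6% and 33.4%, 74.1% and 82.9%, and 27.3% and 63.0%. Monocytes gave 15.9% and 12.2%, 26.9% and 28.4%, and 4.53% and 23.8% after thinning. Endothelial cells gave 7.54% and 5.01%, 21.2% and 51.2%, and 6.46% and 23.15%. B cells, among the lowest, gave 1.89% and 0.864%, 2.74% and 4.37%, and 0.746% and 3.04%. Neutrophils with a UMI of at least 1 member after thinning made up 61.9% and 59.9% in controls, 81.9% and 82.6% after LPS, and 46.0% and 81.1% in the SLC+LPS libraries.

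**Figure D4:**
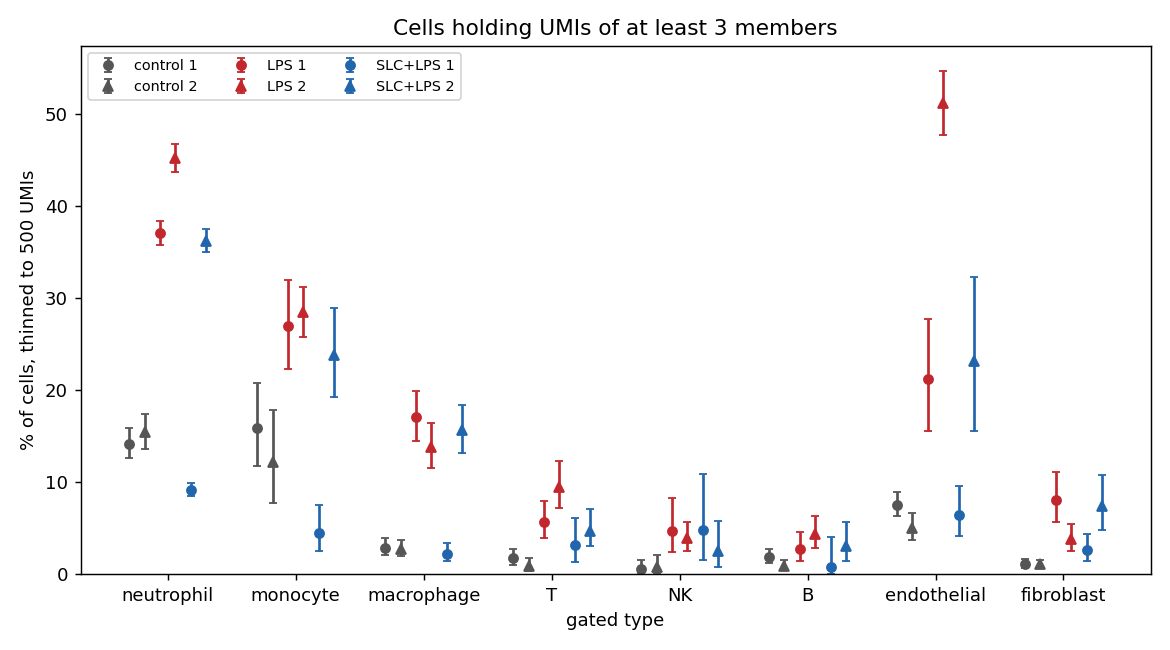
Percent of cells of each gated type with UMIs of at least 3 members after thinning to 500 UMIs, with exact binomial 95% intervals as bars. Circles are replicate 1 and triangles replicate 2 (grey control, red LPS, blue SLC+LPS): in neutrophils SLC+LPS 1 lies at 9.19%, under both controls, and SLC+LPS 2 at 36.2%.

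Members differed in where they were found. By mean CPM over the 6 libraries, 14 members had their highest type in endothelial cells, 13 in neutrophils and 7 in monocytes. The endothelial means are raised by LPS 2, whose members summed to 8170 CPM there, and of those 14 members Ifit1 and Ifit3 were highest in endothelial cells in 1 library each and Mx2 in 3. Those highest in neutrophils in all 6 libraries were Rsad2, Isg20 (an exonuclease of single-stranded RNA), Oas2, Oas3, Oasl2, Rtp4 and Trim30a, with Oasl2 at a mean of 772 CPM against 236 CPM in the next type. Those highest in endothelial cells in all 6 were Slfn5, Ifi44 and Bst2, with Slfn5 at 1190 CPM against 311 CPM. Oasl1 and Ifih1 were highest in monocytes in all 6, with Ifih1 at 371 CPM against 147 CPM in macrophages. Epsti1 was highest in NK cells by mean, at 297 CPM against 260 CPM in T cells, and in 4 of the 6 libraries. Ifi27l2a was highest in fibroblasts by mean and in 5 of the 6 libraries, but in monocytes by the mean of the controls. These are descriptions, with no test. Neutrophils held 15.3% and 12.7% of all member UMIs in the controls and 36.5% to 40.0% in the treated libraries.

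**Figure D5:**
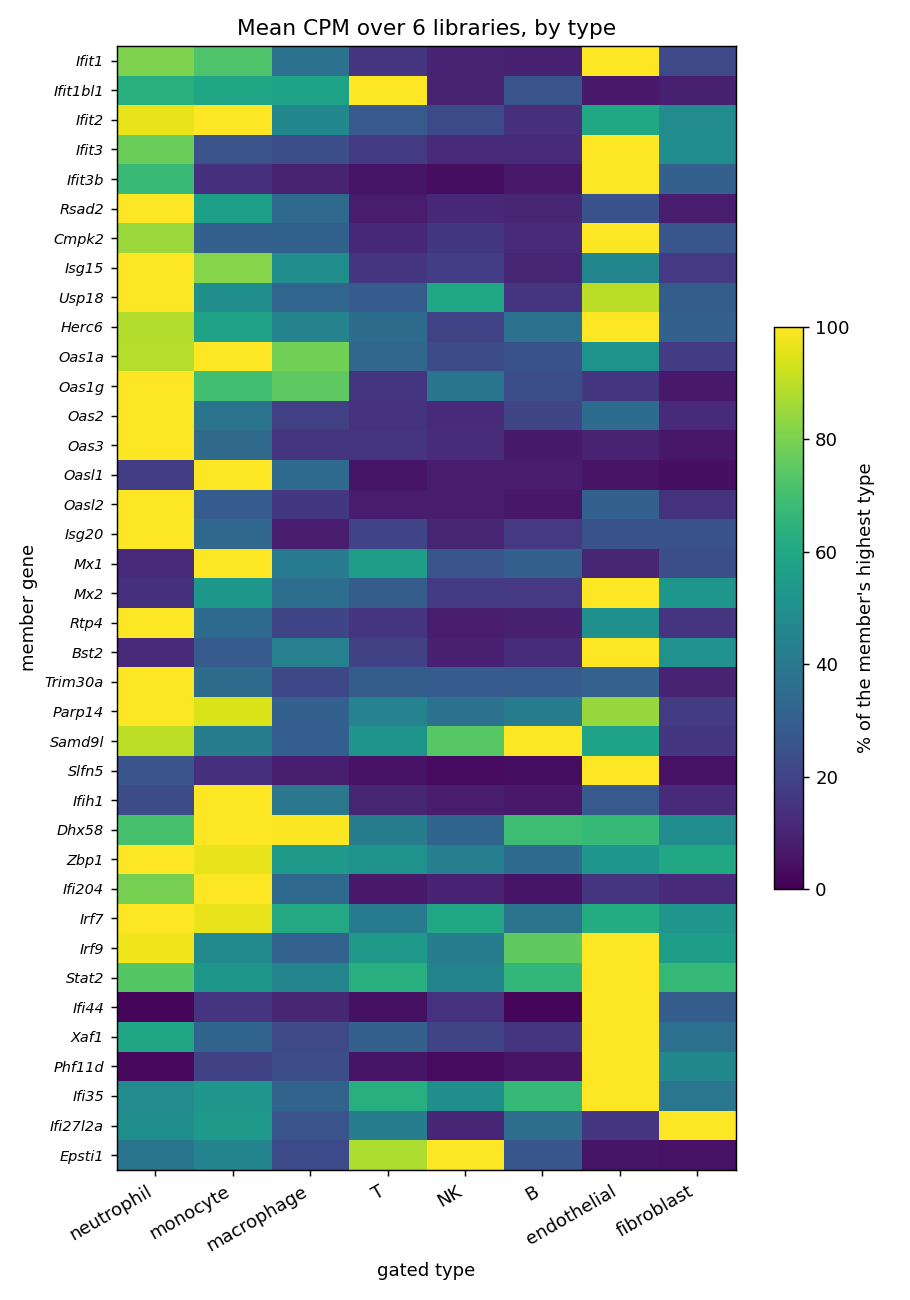
Mean CPM over the 6 libraries of each member (rows, grouped by role as in the plot by library) in each gated type (columns), as a percent of the type where that member is highest. Slfn5 and Ifi44 stand out in endothelial cells, Oasl2 and Trim30a in neutrophils, and Oasl1 and Ifih1 in monocytes.

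Upstream of the members, the interferon ligands were few. Of 20 type I and III ligand genes looked for, 8 were in the gene lists of the files and 1, Ifnb1, was counted well enough to test. Ifnb1 was at 16.8 and 10.4 CPM in the controls, 1.4 and 1.0 CPM after LPS and 0.18 and 0.74 CPM in the SLC+LPS libraries, so it fell after LPS (−3.10, adjusted p = 0.0369) and after SLC+LPS (−4.54, adjusted p = 0.0239), opposite in direction to the members. Of its UMIs 169 and 93 were in control macrophages. The LPS call ended without either LPS library or either control, and the SLC+LPS call without any library of its own groups. Ifng, the interferon gamma gene, was at 1.5 and 1.0 CPM in controls, 9.97 and 4.85 CPM after LPS, and 0.50 CPM in SLC+LPS 1 against 16.35 CPM in SLC+LPS 2. Its groups overlapped after SLC+LPS and it did not pass (2.91, adjusted p = 0.211 after LPS; 3.14, adjusted p = 0.164 after SLC+LPS). Within NK cells Ifng was at 24.0 and 16.4 CPM in controls, 273 and 91.0 CPM after LPS, 65.3 CPM in SLC+LPS 1 (11 UMIs) and 341 CPM in SLC+LPS 2, all treated libraries above both controls, and it did not pass there. Whether Ifng has a part in the members' gap between these mice was not tested.

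Of 6 interferon receptor genes, 4 rose after LPS and 3 after SLC+LPS, where 4.35% and 5.45% of all genes tested passed as higher. Ifnar1 was at 30.9 and 25.6 CPM in controls, 41.8 and 42.1 CPM after LPS (0.94, adjusted p = 0.0487) and 35.9 and 39.3 CPM after SLC+LPS (0.78, adjusted p = 0.0605). The LPS call ended without TMM scaling, with a filter on mitochondrial UMIs, and when any library but LPS 2 was left out. Ifnar2 did not pass (1.32, adjusted p = 0.0532 after LPS; 1.11, adjusted p = 0.0659 after SLC+LPS). Il10rb, shared by the receptors of interferon lambda and interleukin 10, stood at 113 and 99.2, 326 and 266, and 314 and 329 CPM, with the SLC+LPS libraries near each other (1.85, adjusted p = 0.0189 after LPS; 1.97, adjusted p = 0.0164 after SLC+LPS).

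Of 18 tested genes that detect microbes and induce interferon, 5 rose after LPS and 4 after SLC+LPS. Over all genes tested, 4.35% and 5.45% passed as higher in these comparisons. Ikbke, a kinase of that pathway, was at 15.3 and 17.1, 188 and 165, and 178 and 202 CPM, and the LPS receptor gene Tlr4 at 28.3 and 26.5, 57.3 and 50.6, and 64.1 and 54.8 CPM. For neither of these 2 genes, named for their small p, was SLC+LPS 1 near the controls. Other genes of the list differed. Irf1 was at 150 and 172 CPM in controls, 99.8 CPM in SLC+LPS 1 and 353 CPM in SLC+LPS 2, and Irf8 at 98.7 and 80.0, 35.4 and 93.5 CPM. Of the 18 genes, 13 were lower in SLC+LPS 1 than in SLC+LPS 2, 2 of them by more than 2-fold, where 38% of all genes were lower. Other interferon-stimulated genes, listed apart from the members, gave 22 of 44 tested as risen after LPS and 14 after SLC+LPS, with medians of 1.67 and 1.11, and 41 of 44 were lower in SLC+LPS 1 than in SLC+LPS 2. Slfn1, which restrains T cell growth, rose in both comparisons at 24.6 and 18.4, 179.5 and 243 CPM, and 123.5 and 213 CPM (3.66, adjusted p = 0.0163; 3.35, adjusted p = 0.0164). Cxcl10, a chemokine that draws T and NK cells, was at 322 and 454 CPM in controls, 801 and 1233.5 CPM after LPS and 403 and 1050 CPM in the SLC+LPS libraries. In whole libraries it did not pass (1.75, adjusted p = 0.0811 and 1.30, adjusted p = 0.133, edgeR). Within neutrophils it passed after LPS (3.19, adjusted p = 0.0271) and after SLC+LPS (2.66, adjusted p = 0.0493). NK cells gave 2.31 (adjusted p = 0.0118) and 2.50 (adjusted p = 0.00568), free RNA included. It passed in no other type.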

How the data were processed

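UMI counts per gene and barcode were deposited by the authors for each of the 6 libraries. The aligner and counter are not given in the sources used here. Per the submitters' processing notes, the builds were GRCm39 and mm39. The matrices also list barcodes with few UMIs. The members and gene lists, and the rule for the genes named, were chosen with earlier results of these data known. All 38 members are accounted for, with the members called described by comparison and type (at most 12 in whole libraries and 8 in a type by smallest p), and in each type also the 3 with the highest mean CPM.

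Barcodes with at least 500 UMIs were kept. A cell received a type when at least 3 markers of it were detected and its score, which weights rare markers more, was at least 1.5 times that of each of the other 13 of 14 classes. Cells meeting more than 1 type were left out in this way, and no doublet caller was run. Type names rest on markers. Counts were summed per library and type and tested with edgeR 4.0.16 (all 6 libraries and 3 groups in 1 fit, filterByExpr for low counts, TMM scaling, the robust quasi-likelihood F test). Adjusted p is the Benjamini-Hochberg value over all genes of a unit, and a gene is called at adjusted p under 0.05. The SE beside a log2 fold change was worked back from the test, as the size of that value over the square root of F. It is not a measured spread between mice. Ratios of single libraries use CPM + 1. The script was tested on simulated counts, for LPS against control in whole libraries and neutrophils only. That simulation gave all genes the same spread and held no gap between the SLC+LPS libraries. DESeq2 1.42.0 under R 4.3.3 was an alternative, as were other filters, gates, scalings and leaving out each library. The free RNA profile came from barcodes under 100 UMIs. Per the labels the 2 mice of a group are biological replicates. RefSeq spans and promoters (GRCm38.p6) are of another build than the files, so the spans served only for names, length and neighbours. One gene of the pathway lists is not reported here.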

Additional observations from a re-analysis of the deposited data

Results flagged for a closer look

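Cells that met no type's gate were not used in the comparisons by type. They made up 17.0% to 38.2% of cells, and in them the members summed to 4437 CPM in LPS 1, 7339 CPM in LPS 2 and 4233 CPM in SLC+LPS 2, above the 1688 and 1617 CPM of the controls, while SLC+LPS 1 had 1547 CPM.

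Several members had values in opposite directions in different cell types, in that both treated libraries lay above both controls in some types and below both in another. None of these values passed the test within its type, and none of the differences between types was tested. Such an order of 2 libraries against 2 is common: both LPS libraries lay above both controls for 12.8% to 21.97% of genes, by type. Values are log2 ratios of mean CPM. After SLC+LPS, in monocytes, Ifit1 had −2.19 (1.20 in neutrophils), Ifih1 −1.94 (0.59 in neutrophils), Ifi204 −1.20 (2.86 in endothelial cells), Parp14 −0.93 (1.33 in neutrophils) and Rtp4 −0.80 (1.40 in fibroblasts). Ifih1 had −0.95 in macrophages as well, and Ifit2 had −0.60 in fibroblasts (2.26 in neutrophils). After LPS alone, Samd9l had −0.38 in NK cells (0.97 in neutrophils).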

How the results depend on the processing

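In whole libraries no alternative reversed a member's direction among those called. Of 17 members called after LPS and 8 after SLC+LPS, DESeq2 called 31 and 21, and leaving out 1 library gave 0 to 23 and 0 to 14. With DESeq2, 1511 and 1764 of 28567 genes passed as higher in these comparisons. The replicate block gave 2 and 0 members, where 160 and 184 of 18110 genes passed as higher. Deviations of same-numbered libraries correlated at 0.084, −0.183 and −0.158. These values cannot decide whether the numbers pair the mice, since large differences within a group could hide a shared factor. The main test did not pair libraries by number. The median after SLC+LPS ranged from 0.60 to 2.12 with 1 library left out, and against LPS from −1.74 to −0.21. Over the 8 types, the pairs of a member and a type called (18, 6 and 0 in the 3 comparisons) became 79, 34 and 4 with DESeq2, 128, 63 and 27 with no filter on low counts, and 1, 1 and 0 with free RNA subtracted. The pairs that passed with free RNA subtracted were not among the 18 and 6. Leaving out 1 library gave 1 to 84, 0 to 23 and 0 to 39. Calls over all genes shifted as well when a library was left out. The cause of these shifts was not tested. Where a library is left out, the lone mouse of its group is assumed to vary like the others. With 2 mice per group, and 104 to 200 NK cells in the SLC+LPS libraries, small differences were not detectable.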
